A study of Mus musculus with 26 samples.

Results

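Collagens are the main proteins of the extracellular matrix that adipocytes and stromal cells of fat are embedded in. The array used here carried probes for 44 genes whose names have the form of a collagen chain gene (Col, a type number, a and a chain number), out of 26154 gene names with values. Of the 44 genes, 11 encode fibrillar chains, 8 encode chains of basement membranes (types IV, XV and XVIII) and 25 encode other collagens. Their 91 probes were reduced to the probe of highest mean intensity per gene. Values were available for 40 of the 44 genes. Col6a6, Col10a1 and Col25a1 were above background on at most 6 of the 26 arrays, and Col4a6 was above background on every array yet was not among the values used.

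RNA came from inguinal subcutaneous white adipose tissue, with 1 array per mouse. Total ChREBP KO mice (n = 7) are Mlxipl-null in all cells and lack the α and β isoforms of ChREBP, a glucose-responsive transcription factor. ChREBPβ KO mice (n = 5) carry a CRISPR/Cas9 deletion of the exon that is specific for the shorter isoform, also in all cells. Each KO was compared with WT mice of its own line (n = 7 for the total line and n = 7 for the ChREBPβ line). According to the methods, all were C57BL6/J males, and the labels state that all were fasted for 24 h and refed for 18 h with food and water holding 20% glucose. The ages of the mice were not given in the sources used here. Values are log2 intensities after quantile normalization, so that 1 unit is a doubling. Adjusted p-values are from limma with the Benjamini-Hochberg method over all 40168 probes, and a gene was called at an adjusted p under 0.05.

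Collagen chains are wound into a helix in the endoplasmic reticulum, after hydroxylation of prolines and lysines. Fibrillar collagens (types I, III and V in fat) are then trimmed outside the cell, align into fibrils and are cross-linked. Type IV collagen forms the network of the basement membrane that surrounds each adipocyte and each vessel, and type VI collagen forms beaded filaments close to that membrane. In fat the main sources of fibrillar and type VI collagens are fibroblasts and adipose progenitors.

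The brightest Mlxipl probe followed the labels. It ranged from 13.63 to 13.95 in total ChREBP KO and from 15.77 to 16.54 in its WT. In the ChREBPβ line it ranged from 13.93 to 14.36 in the KO and from 15.25 to 16.18 in WT. A dimmer Mlxipl probe was also lower in both KOs, with medians of 10.58 against 11.43 and 10.445 against 10.995. A further probe did not follow the labels, and its KO and WT arrays overlapped. Its medians were 11.74 in total ChREBP KO and 11.815 in its WT, and 11.67 and 11.62 in the ChREBPβ line. The adipocyte score, the mean log2 intensity of 12 adipocyte genes, ranged from 15.56 to 16.02 in WT of the total line. It ranged from 16.45 to 16.60 in total ChREBP KO, so that the arrays did not overlap. In the ChREBPβ line it was 16.19 to 16.38 in WT and 16.125 to 16.53 in the KO. Of the 12 genes, 11 were higher in total ChREBP KO than in its WT and 0 were lower. Of all genes, 25.7% were higher and 20.2% lower. The part of adipocyte RNA in the collagen values was not tested. Arrays also differed in RNA of other cells. The lymphocyte score (15 genes) ranged from 10.79 to 12.47 in WT of the total line, and from 7.71 to 11.16 in total ChREBP KO. In the ChREBPβ line it was below every array of WT of the total line, with 7.12 to 8.07 in WT and 7.11 to 8.79 in the KO. All 15 lymphocyte genes were lower in total ChREBP KO than in its WT, against 20.2% of all genes. All 15 were also lower in WT of the ChREBPβ line than in WT of the total line, against 19.7%. The skeletal muscle score (12 genes) varied within each group, from 6.02 on the lowest array to 13.12 on the highest. The fibroblast and progenitor score (12 genes) ranged from 10.75 to 11.46 in WT of the total line, and from 10.75 to 11.06 in total ChREBP KO. It was 11.24 to 11.75 in the other WT group and 11.03 to 11.88 in ChREBPβ KO. In whole tissue, fewer cells of a type and less RNA per cell cannot be told apart.

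When total ChREBP KO was compared with its WT, 15 of the 40 collagens were called, 11 of them higher and 4 lower. This is 37.5% of the collagens, against 45.9% of all genes (1 probe per gene), of which 25.7% were higher and 20.2% were lower. The share of collagens was thus not above that of genes at large. The 15 include Col24a1 and Col6a4, whose probes were not above background on all arrays. With only probes above background on all arrays, 13 of the calls were tested again, and 13 stayed. Of the 7 basement membrane chains, Col4a1, Col4a2 and Col4a4 rose, as did Col6a3, the α3 chain of type VI collagen, whereas the main chains of type I and type III collagen were not called. The median log2 fold change was 0.18 over the 40 collagens and 0.05 over all genes. By class the median was 0.41 for basement membrane, 0.23 for fibrillar and 0.04 for other collagens. KO and WT arrays did not overlap for 2 collagens, Col4a2 and Col6a3, against 14.6% of all genes.

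**Figure D1:**
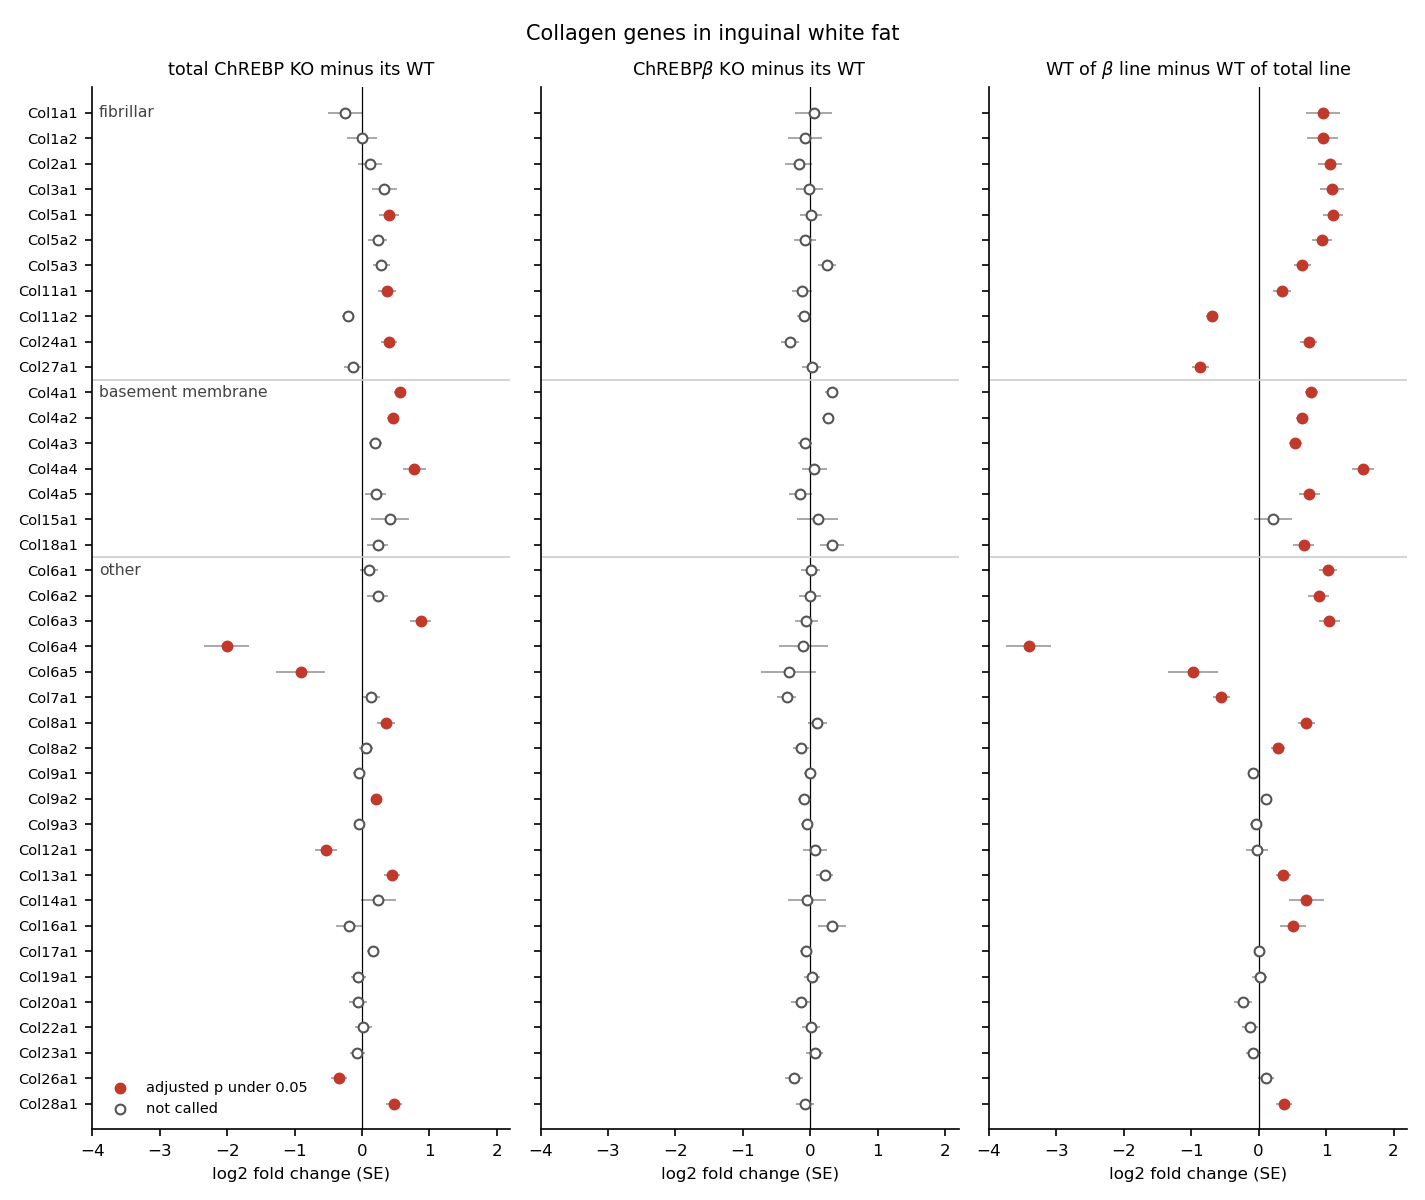
Log2 fold change with its SE (x axis) of each of the 40 collagen genes (rows, by class) in 3 comparisons. Red points passed an adjusted p of 0.05, which 15 genes did in total ChREBP KO, 0 in ChREBPβ KO and 29 between the WT groups.

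Col4a1 and Col4a2 encode the α1 and α2 chains of the most common type IV collagen, which are built into 1 molecule. Both genes lie head to head on mouse chromosome 8. In RefSeq (GRCm38.p6) their starts lie 21 bases apart, and the windows from 250 bases before to 50 bases after each start share 78 bases. The windows are shown since both genes changed together. Capitals mark the CCAAT box and the GC box, spelled GGGCGG, each searched on both strands, with Col4a1 at chr8:11312777-11313076 (minus strand) and Col4a2 at chr8:11312555-11312854 (plus strand), each written 5′ to 3′ in the direction of its gene.
Col4a1: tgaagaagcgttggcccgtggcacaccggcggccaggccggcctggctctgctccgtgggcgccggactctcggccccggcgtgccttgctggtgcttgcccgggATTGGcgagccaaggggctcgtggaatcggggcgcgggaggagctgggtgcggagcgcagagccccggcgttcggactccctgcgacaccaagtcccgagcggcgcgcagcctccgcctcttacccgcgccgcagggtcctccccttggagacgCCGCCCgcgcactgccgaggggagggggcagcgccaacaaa
Col4a2: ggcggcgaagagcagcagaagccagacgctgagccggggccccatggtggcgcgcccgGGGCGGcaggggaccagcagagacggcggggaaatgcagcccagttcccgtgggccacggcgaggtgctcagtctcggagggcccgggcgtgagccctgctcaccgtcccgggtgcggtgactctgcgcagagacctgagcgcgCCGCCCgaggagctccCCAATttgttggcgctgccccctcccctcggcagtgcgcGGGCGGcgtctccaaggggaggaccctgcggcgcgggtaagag
The Col4a1 window held 1 CCAAT box and 1 GC box, and the Col4a2 window held 1 and 3. The GC box of the Col4a1 window lies in the shared bases and is 1 of the 3 in the Col4a2 window. Such windows were found for 35 of the 44 collagen genes. The CCAAT box was in those of 13 genes and the GC box in those of 22 genes, against 37.4% and 35.7% of all 32851 windows. The TATA box (TATAAA) was in 5 of the 35, against 13.6% of all windows. The E-box CACGTG, letters found in many sites that ChREBP binds, was in 0 of the 35, against 7.15% of all windows, and was looked for only inside the window.

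Col4a1 (probe at mm9 chromosome 8, 11199009 to 11199068) ranged from 13.03 to 13.46 in WT of the total line, with a median of 13.18. In total ChREBP KO it ranged from 13.45 to 13.96, with a median of 13.77. It was 0.57 higher in the KO (SE 0.09, 1.48-fold, adjusted p = 2.0e-05), and the arrays of both groups met only at the lowest KO array. Col4a2 (mm9 chromosome 8, 11448840 to 11448899) ranged from 13.10 to 13.54 in WT and from 13.58 to 13.94 in the KO, with medians of 13.42 and 13.88. Its rise was 0.46 (SE 0.08, 1.37-fold, adjusted p = 5.5e-05), and no KO array reached down to the WT arrays. Within each of the 4 wash batches, as the labels name them, the difference was positive, from 0.45 to 0.71 for Col4a1 and from 0.44 to 0.47 for Col4a2. With the lymphocyte and skeletal muscle scores as covariates, the rises were 0.45 (adjusted p = 0.023) and 0.43 (adjusted p = 0.014). With the slide as a fixed block they were no longer called, with adjusted p-values of 0.14 and 0.18.

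Col4a4, a chain of the type IV collagen of kidney and other specialised basement membranes, was also called. It ranged from 5.90 to 7.20 in WT (median 6.51) and from 6.98 to 7.49 in total ChREBP KO (median 7.22), with overlapping arrays. The rise was 0.78 (SE 0.17, adjusted p = 0.00059), and its other probe rose by 0.76 (SE 0.17). With the covariates for other cells the value was 0.56 and lost its call (adjusted p = 0.13). Col15a1 and Col18a1, whose products link basement membranes to the matrix around them, were not called on the probes chosen. Col15a1 ranged from 9.0 to 10.06 in WT and from 8.89 to 10.63 in the KO (medians 9.23 and 9.86, difference 0.41, SE 0.28, adjusted p = 0.23). The other Col15a1 probe (mm9 chromosome 4, 47325273 to 47325332) did not share this result, with a rise of 1.25 (SE 0.14, adjusted p = 1.6e-07). Col18a1 ranged from 11.48 to 12.74 and from 12.10 to 12.77 (medians 12.18 and 12.28, difference 0.24, SE 0.16, adjusted p = 0.23). All 7 basement membrane chains with values had a positive difference, and 3 passed the test. These 3, all higher, are 42.9% of the class, against 45.9% of all genes called and 25.7% called higher.

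Of the 11 fibrillar chains, 3 were called higher and 0 lower. This is 27.3% higher, near the 25.7% of all genes. The 3 include Col24a1, which was above background on 2 of 7 WT arrays and is a description only. Col1a1 and Col1a2, the chains of type I collagen, spread widely in WT. Col1a1 ranged from 12.62 to 14.45 in WT (median 13.59) and from 13.16 to 13.63 in total ChREBP KO (median 13.44). The SD was 0.69 in WT and 0.18 in the KO, and the KO arrays lay inside the range of the WT arrays. The difference was -0.25 (SE 0.25, adjusted p = 0.45). Col1a2 ranged from 14.08 to 15.42 and from 14.66 to 14.98 (medians 14.78 and 14.81), with a difference of 0.00 (SE 0.23, adjusted p = 0.9988). Col3a1, the chain of type III collagen, ranged from 14.46 to 15.70 and from 15.21 to 15.72 (medians 15.04 and 15.50, difference 0.33, SE 0.18, adjusted p = 0.14). With this spread, small changes of type I collagen in either direction were not detectable with 7 arrays a group.

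The fibrillar chains that were called are those of minor collagens, of which types V and XI co-assemble with the main chains and limit fibril width. Col5a1, the α1 chain of type V collagen, ranged from 11.56 to 12.65 in WT and from 12.43 to 12.70 in the KO (medians 12.21 and 12.59). Its rise was 0.40 (SE 0.15, adjusted p = 0.031). The call was lost when any of 6 arrays was left out, namely replicates 3, 4 and 6 of WT of the total line and replicates 1, 4 and 7 of total ChREBP KO, with values from 0.30 to 0.38 and adjusted p-values from 0.054 to 0.088. Col24a1 was dim, from 4.36 to 4.95 in WT (median 4.67), where 2 of 7 arrays were above background, and from 4.73 to 5.31 in the KO (median 5.08), where 7 of 7 were. Its difference of 0.40 is a description only, since few WT arrays were above background. Col11a1 rose by 0.37 (SE 0.13, adjusted p = 0.023), a call that was lost with 75th percentile scaling (0.28, adjusted p = 0.13). It was also lost when any of 3 arrays was left out (adjusted p from 0.055 to 0.056 in limma).

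**Figure D2:**
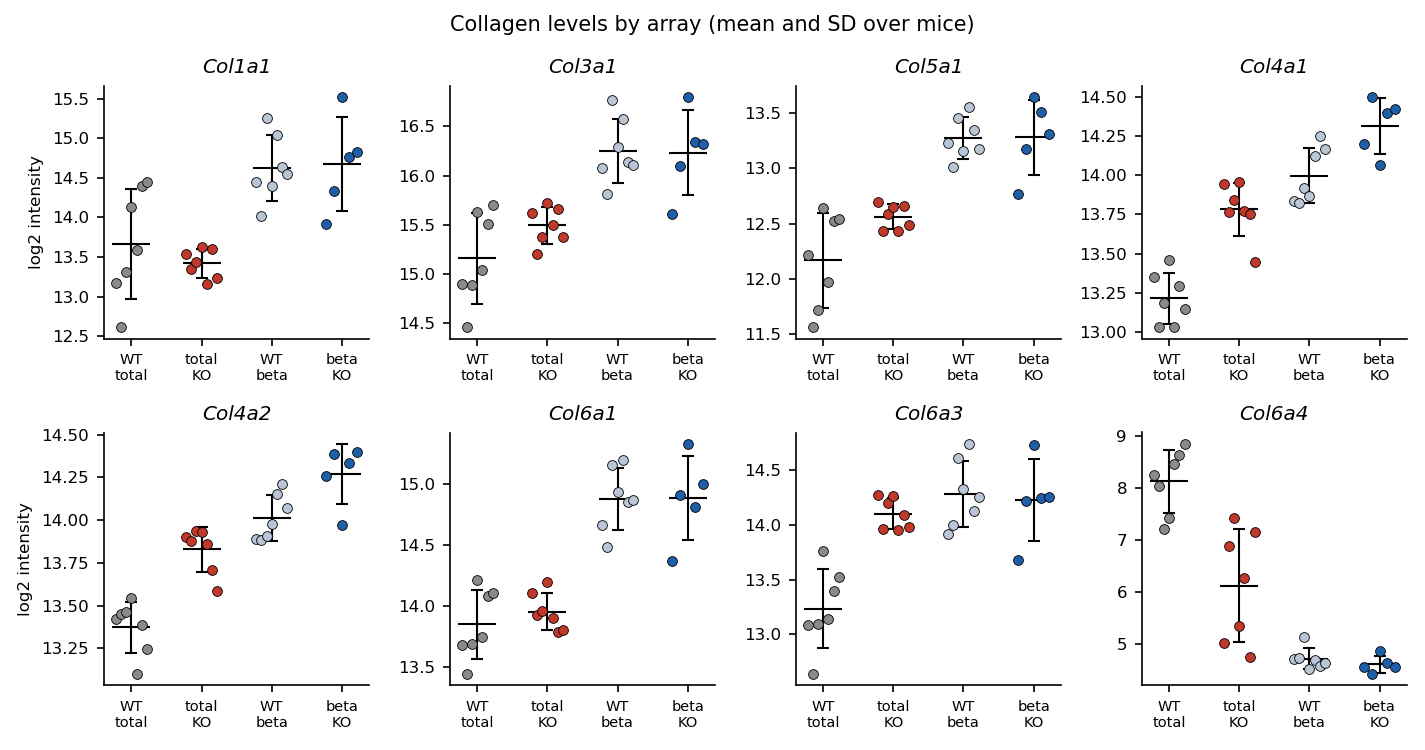
Log2 intensity (y axis) of 8 collagen genes on each array, by group, with the mean and SD over mice. Col4a2 and Col6a3 arrays of total ChREBP KO lie above all arrays of its WT, Col1a1 arrays of the KO lie within the WT range, and Col6a4 falls from WT of the total line (7.21 to 8.84) to total ChREBP KO (4.74 to 7.41).

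Col6a1, Col6a2 and Col6a3 encode the chains that together make the usual type VI collagen, and the cleaved end of the α3 chain is known as endotrophin. Col6a3 (mm9 chromosome 1, 92663663 to 92663722) ranged from 12.64 to 13.76 in WT of the total line, with a median of 13.14. In total ChREBP KO it ranged from 13.95 to 14.28, with a median of 14.09. All 7 KO arrays lay above all WT arrays, with a rise of 0.87 (SE 0.15, 1.83-fold, adjusted p = 6.6e-05). This was the largest rise among the 40 collagens on the probes chosen. Within the 4 wash batches the difference ranged from 0.57 to 1.14, and with the covariates for lymphocytes and skeletal muscle it was 0.71 (adjusted p = 0.0415). With the slide as a fixed block its adjusted p was 0.056. The other probes of Col6a3 rose by 0.53 (SE 0.20) and 0.85 (SE 0.15), and both were called.

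Col6a1 ranged from 13.45 to 14.21 in WT and from 13.79 to 14.20 in total ChREBP KO (medians 13.74 and 13.93). The difference was 0.10 (SE 0.13, adjusted p = 0.55), and the groups overlapped over most of their range. Col6a2 ranged from 10.65 to 11.51 and from 11.19 to 11.57 (medians 11.08 and 11.31, difference 0.23, SE 0.15, adjusted p = 0.22). The probes of Col6a2 disagreed. The probe described was the brightest, at mm9 chromosome 10, 76058931 to 76058990, while the probes at 76061089 to 76061148 and at 76064567 to 76064626 rose by 0.64 (SE 0.11) and 0.81 (SE 0.14) and were called.

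The chains were also compared within arrays. The chains were chosen after their values were seen, so the comparison is a description with no test. Col6a3 minus Col6a1 on the same array does not depend on the overall amount of type VI collagen RNA. The size of such a difference between probes has no meaning of its own, and only its shift between groups was compared. It ranged from -0.81 to -0.45 in WT of the total line and from 0.04 to 0.30 in total ChREBP KO, a shift of 0.77. The arrays of both groups did not overlap. In the ChREBPβ line the same measure ranged from -0.75 to -0.46 in WT and from -0.74 to -0.56 in the KO, a shift of -0.06 with overlapping arrays. Both WT groups differed by 0.02. Against the brightest Col6a2 probe, Col6a3 shifted by 0.64 in total ChREBP KO, again without overlap. Against the other Col6a2 probes it shifted by 0.23 and 0.06, with overlapping arrays. The shift without overlap was thus seen with 1 of 3 Col6a2 probes. With the other Col6a3 probes the shift against Col6a1 was 0.42 and 0.74, and the arrays overlapped.

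The windows around the starts of Col6a3 and Col6a1 are shown since the genes differed in this comparison. Neither held any of the motifs above, so no letter is in capitals. Col6a3 is at chr1:90843922-90844221 and Col6a1 at chr10:76725995-76726294 (GRCm38.p6, RefSeq), both on the minus strand.
Col6a3: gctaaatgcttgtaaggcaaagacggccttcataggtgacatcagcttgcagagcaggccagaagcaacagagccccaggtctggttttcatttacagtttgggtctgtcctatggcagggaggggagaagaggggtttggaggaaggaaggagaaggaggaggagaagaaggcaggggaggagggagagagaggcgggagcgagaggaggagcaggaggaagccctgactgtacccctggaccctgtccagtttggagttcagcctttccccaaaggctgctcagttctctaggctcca
Col6a1: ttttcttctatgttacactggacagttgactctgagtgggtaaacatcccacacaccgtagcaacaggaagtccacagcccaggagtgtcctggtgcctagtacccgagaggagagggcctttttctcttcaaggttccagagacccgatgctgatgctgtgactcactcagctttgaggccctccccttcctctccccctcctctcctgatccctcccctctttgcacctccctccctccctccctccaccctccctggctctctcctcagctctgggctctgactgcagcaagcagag

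**Figure D3:**
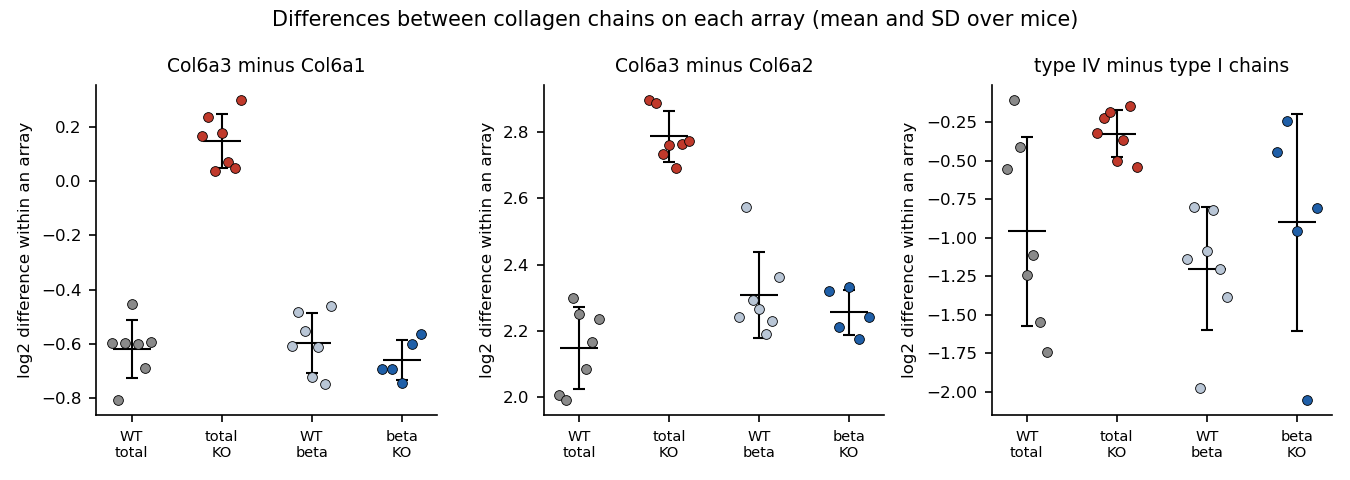
Difference of log2 intensities between collagen chains on the same array (y axis), by group, with the mean and SD over mice. Col6a3 minus Col6a1 lies between 0.04 and 0.30 on the total ChREBP KO arrays and at or below -0.45 on all arrays of the other groups.

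A like comparison of type IV chains (mean of Col4a1 and Col4a2) with type I chains (mean of Col1a1 and Col1a2) gave a shift of 0.63 in total ChREBP KO. WT arrays ranged from -1.74 to -0.10 and KO arrays from -0.54 to -0.15. The groups overlapped. In the ChREBPβ line the shift was 0.30, also with overlapping arrays.

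Among collagens lower in total ChREBP KO, Col6a4 had the largest fall. It encodes a chain that can replace the α3 chain in type VI collagen. It ranged from 7.21 to 8.84 in WT of the total line (median 8.24) and from 4.74 to 7.41 in the KO (median 6.26), and it fell by 2.01 (SE 0.33, 4.02-fold lower, adjusted p = 3.0e-05). The lymphocyte score moved with it. The 3 total ChREBP KO arrays with lymphocyte scores between 7.71 and 8.41 had Col6a4 values of 4.74 to 5.33. The other 4, with scores between 10.20 and 11.16, had values of 6.26 to 7.41. With the lymphocyte and skeletal muscle scores as covariates, Col6a4 was no longer called (-0.55, SE 0.22, adjusted p = 0.11). Col6a5 ranged from 5.51 to 7.74 in WT (median 7.40) and from 5.68 to 7.08 in the KO (median 5.82). Its fall of 0.91 (SE 0.37, adjusted p = 0.046) was lost when any of 16 arrays was left out (adjusted p from 0.050 to 0.098), and within wash batches it ranged from -1.92 to 0.84. The remaining falls were those of Col12a1 (-0.53, SE 0.16), a collagen that binds to fibrils, and Col26a1 (-0.34, SE 0.12). The other Col12a1 probe and 1 of the other Col26a1 probes were not called.

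**Figure D4:**
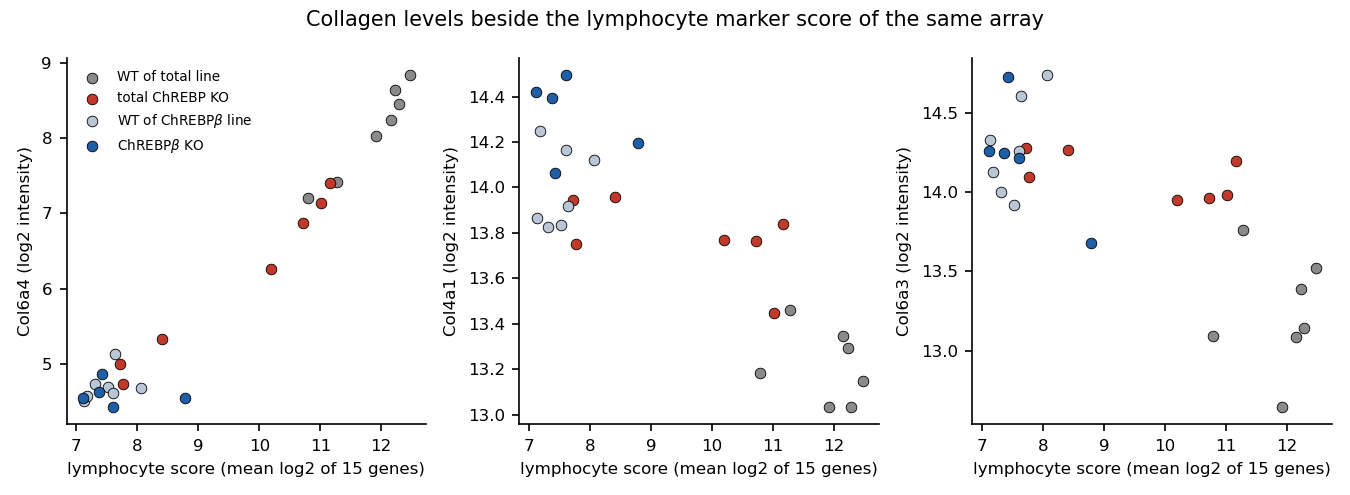
Log2 intensity of Col6a4, Col4a1 and Col6a3 (y axes) beside the lymphocyte score of the same array (x axis), coloured by group. In the total line Col6a4 rises with the score, from 4.74 to 8.84. In the ChREBPβ line Col6a4 is near background, 4.42 to 5.13, and does not follow the score. At scores of 10.20 to 11.16 the total ChREBP KO arrays have Col6a3 values of 13.95 to 14.20.

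The other rises outside the fibrillar and basement membrane classes were smaller. Col28a1, a collagen known from peripheral nerve, ranged from 4.96 to 5.83 in WT and from 5.50 to 6.12 in the KO (medians 5.38 and 5.94) and rose by 0.48 (SE 0.12, adjusted p = 0.0018). Col13a1, a transmembrane collagen, rose by 0.45 (SE 0.11), and Col8a1, a network collagen of vessels, by 0.36 (SE 0.13). Col9a2 rose by 0.21 (SE 0.08), a call that was lost with 75th percentile scaling (0.12, adjusted p = 0.28). The Col8a1 call was lost when any of 5 arrays was left out (adjusted p from 0.052 to 0.076 in limma). The Col9a2 call was lost without any of 7 arrays (adjusted p from 0.051 to 0.093). The 9 collagens that sit on fibrils (FACIT collagens) had 1 rise and 1 fall. In total ChREBP KO, 12 of the 15 called collagens had the same direction in every wash batch, and the exceptions were Col6a5, Col9a2 and Col26a1. The batch differences come from the same arrays as the calls and are no independent support for them.

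In ChREBPβ KO, 0 of 40 collagens were called against its WT, where 0.0497% of all genes were. The lowest adjusted p among the collagens was 0.37 in limma, that of Col4a1. The arrays overlapped between KO and WT for every collagen, against 0.356% of genes whose arrays did not overlap. The median log2 fold change was -0.03 over the collagens and -0.0016 over all genes, and the collagens ranged from -0.35 to 0.32.

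Col4a1 had values of 14.20, 14.50, 14.06, 14.39 and 14.42 in the 5 ChREBPβ KO mice, and ranged from 13.82 to 14.25 in WT (median 13.92). The KO was 0.32 higher (SE 0.10, adjusted p = 0.37). Col4a2 had values of 14.26, 14.39, 13.97, 14.33 and 14.40 in the KO and ranged from 13.89 to 14.21 in WT (median 13.98), a difference of 0.26 (SE 0.09, adjusted p = 0.42). All 5 Col4a1 arrays of the KO were above the WT median, 3 of them above the highest WT array, and 4 of 5 Col4a2 arrays were above the highest WT array. For the main interstitial chains the differences were close to 0. Col1a1 had values of 13.92, 14.33, 15.52, 14.76 and 14.82 (difference 0.05, SE 0.28), and Col3a1 had values of 15.61, 16.10, 16.79, 16.34 and 16.32 (difference -0.02, SE 0.20). Col6a3 had values of 13.68, 14.22, 14.73, 14.25 and 14.26 (difference -0.06, SE 0.17, adjusted p = 0.99). Replicate 4 had the highest Col1a1, Col3a1, Col6a1 and Col6a3 of the group and the lowest Col4a1 and Col4a2. Its skeletal muscle (12.80), macrophage (13.65) and fibroblast (11.88) scores were also the highest of the group, and their part in these values was not tested.

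The other chains described by array were not called in ChREBPβ KO either. Col1a2 had values of 15.02, 15.44, 16.62, 15.57 and 15.91, and Col5a1 had values of 12.77, 13.17, 13.64, 13.51 and 13.31. Col6a1 had values of 14.37, 14.91, 15.33, 14.81 and 15.001 and Col6a2 values of 11.47, 11.90, 12.55, 12.00 and 11.92. Each of these chains was highest in replicate 4, and the differences from WT lay between -0.08 and 0.01. Col18a1, the precursor of endostatin, had values of 12.62, 13.28, 13.08, 13.18 and 13.26 (difference 0.32, SE 0.17, adjusted p = 0.70). Col15a1 had values of 9.49, 10.20, 9.04, 9.17 and 10.44 (difference 0.11, SE 0.30). Col4a4 had values of 8.05, 8.45, 7.71, 8.04 and 8.11 (difference 0.06, SE 0.19). Neither of these chains stood apart from WT, whose arrays they overlapped. Col24a1 had values of 5.27, 5.32, 5.22, 4.63 and 4.97 (difference -0.30, SE 0.13, adjusted p = 0.59), and Col28a1 had values of 5.68, 5.84, 5.53, 5.57 and 5.91. Col6a4 was near background in this line, with values of 4.56, 4.42, 4.86, 4.63 and 4.55 (difference -0.11, SE 0.36), above background on 1 of 5 arrays. Col6a5 had values of 5.49, 5.07, 7.69, 5.24 and 5.40, with replicate 4 far above the others, while WT ranged from 5.32 to 6.91 (median 5.98). Col27a1 and Col11a2 were not called either, with Col27a1 at 7.18, 6.88, 7.30, 7.38 and 6.88 and Col11a2 at 5.08, 5.22, 5.02, 5.19 and 4.83.

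Whether a collagen responded unequally to the KOs was tested as an interaction, the change in ChREBPβ KO less the change in total ChREBP KO. On the probes chosen it was called for 5 of 40 collagens, 1 higher and 4 lower. Of all genes 23.2% were called, with 10.2% higher and 13.0% lower. Col6a3 differed by -0.93 (SE 0.23, adjusted p = 0.0053), Col28a1 by -0.56 (SE 0.17, adjusted p = 0.024) and Col4a4 by -0.72 (SE 0.25, adjusted p = 0.042). The remaining calls, Col24a1 (-0.70) and Col6a4 (1.90), are given as descriptions only, since each probe was near background in 1 or both groups of a line. For Col4a1 and Col4a2 the difference was not called (-0.25, SE 0.13 and -0.20, SE 0.12). Other probes gave other calls. The other Col15a1 probe (-0.89, SE 0.21) and both other Col6a2 probes (-0.70, SE 0.16 and -0.65, SE 0.21) were called. The other Col4a4 probe was called too (-0.79, SE 0.26), but the other Col28a1 probe was not (-0.20, SE 0.13). Of the other Col6a3 probes, 1 was called (-1.12, SE 0.23) and 1 was not (-0.64, SE 0.30). The scaling of the arrays decided several calls on the probes chosen. With 75th percentile scaling Col4a1 (-0.43, adjusted p = 0.036) and Col4a2 (-0.37, adjusted p = 0.047) were called, and Col24a1, Col28a1 and Col4a4 were not (adjusted p = 0.081, 0.19 and 0.067). The split was then 2 higher and 3 lower, and with the processed signal 0 higher and 5 lower. Over all 38832 probes of these fits it was 4418 higher and 4395 lower, and 4049 and 5006. Col6a3 was called with 75th percentile scaling too (-1.08, adjusted p = 0.0015). The Col4a4 call was lost when any of 15 arrays was left out (adjusted p from 0.051 to 0.091), and the Col28a1 call without replicate 4 of ChREBPβ KO (-0.51, adjusted p = 0.051). With the covariates for lymphocytes and skeletal muscle, or with the slide as a fixed block, 0 of the 40 were called. Over all 40168 probes these fits called 2287 and 627, in place of 9049.

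The WT mice of both lines differed more in collagens than KO and WT did within a line. In WT of the ChREBPβ line, 24 collagens were higher and 5 were lower than in WT of the total line, which is 72.5% of the 40, against 45.8% of all genes, with 26.1% higher and 19.7% lower. With 75th percentile scaling the split was 19 higher and 8 lower, and with the processed signal 19 higher and 6 lower. Over all 38832 probes, 7761 were higher and 10093 lower with that scaling, and 8907 and 9415 with the processed signal. The arrays of both groups did not overlap for 13 collagens, against 16.9% of all genes. All 11 fibrillar chains were called, 9 of them higher, and 6 of 7 basement membrane chains were higher. The median log2 difference was 0.94 for fibrillar, 0.67 for basement membrane and 0.06 for other collagens, and 0.03 over all genes. The comparison shares the WT mice of the total line with the first comparison.

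Col1a1 ranged from 14.02 to 15.26 in WT of the ChREBPβ line (median 14.55) and was 0.96 higher than in WT of the total line (SE 0.25, 1.94-fold, adjusted p = 0.0032). Col1a2 ranged from 15.30 to 16.52 (median 15.71, difference 0.95, SE 0.23) and Col3a1 from 15.81 to 16.77 (median 16.14, difference 1.09, SE 0.18), the latter with arrays that did not overlap. Col5a1 ranged from 13.01 to 13.55 (median 13.23, difference 1.11, SE 0.15, adjusted p = 1.5e-06). The other Col3a1 probes were higher by 0.64 and 0.61, and 1 of the other Col1a1 probes differed by -0.02. Col6a1 ranged from 14.48 to 15.20 (median 14.87), Col6a2 from 11.43 to 12.37 (median 12.07) and Col6a3 from 13.92 to 14.74 (median 14.26). Their differences were 1.03 (SE 0.13), 0.89 (SE 0.15) and 1.05 (SE 0.15). Other probes gave other sizes, with 1.24 (SE 0.11) and 1.13 (SE 0.14) for Col6a2 and 0.48 (SE 0.20, not called) and 0.78 (SE 0.15) for Col6a3.

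Col4a4 showed the largest rise, from 7.49 to 8.57 (median 8.04), which was 1.55 above WT of the total line (SE 0.17, adjusted p = 1.1e-07). Col18a1 ranged from 12.48 to 13.17 (median 12.69, difference 0.67, SE 0.16, adjusted p = 0.0012). Col4a1 and Col4a2 were higher by 0.78 (SE 0.09) and 0.64 (SE 0.08), and Col15a1 was not called (8.34 to 10.14, median 9.69, difference 0.21, SE 0.28), although its other probe was 1.21 higher. The lowest differences were those of Col6a4, Col6a5, Col27a1, Col11a2 and Col7a1. Col6a4 ranged from 4.51 to 5.13 in WT of the ChREBPβ line (median 4.68), above background on 3 of 7 arrays, and differed by -3.41 (SE 0.33). Col27a1, a fibrillar chain of cartilage, ranged from 6.75 to 7.47 (median 7.20) against 7.34 to 8.39 in WT of the total line, a difference of -0.87 (SE 0.13). Col11a2 ranged from 5.05 to 5.34 (median 5.10) against 5.70 to 6.07 (median 5.82), a difference of -0.70 (SE 0.09), and its other probe was not called.

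With the lymphocyte and skeletal muscle scores as covariates, 3 of the 40 collagens were called between the WT groups in place of 29. These were Col4a4, which was higher, and Col9a1 and Col27a1, which were lower. Over all 40168 probes, 1309 were called in that fit in place of 18215. In that fit Col1a1 differed by 0.64 (SE 0.55) and Col3a1 by 0.68 (SE 0.39). The lymphocyte scores of both WT groups did not overlap, so that line and lymphocyte RNA cannot be told apart here. With the slide as a fixed block 24 collagens were called, 21 of them higher. Over all probes 12439 were called with that block, 7023 of them higher.

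Chains of the same collagen type, and Col3a1 with Col5a2, were compared across mice within each group of 7, and no groups were pooled. The 15 relations shared array and scaling, and 10 passed an adjusted exact permutation p under 0.05 for Pearson's r. Col1a1 and Col1a2 had r = 0.99 and rho = 1.00 in WT of the total line (adjusted p = 0.0015 and 0.0030, exact permutation test, n = 7). Without the 2 arrays farthest from the median r was 0.98. In WT of the ChREBPβ line r was 0.87 (adjusted exact permutation p = 0.028), and 0.56 without 2 arrays. The r in total ChREBP KO was 0.76 and did not pass (adjusted exact permutation p = 0.068), and it was 0.98 without 2 arrays.

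Col4a1 and Col4a2 had r = 0.94 and rho = 0.93 in WT of the ChREBPβ line (adjusted exact permutation p = 0.014 and 0.025), and r = 0.93 without 2 arrays. In total ChREBP KO r was 0.89 (adjusted exact permutation p = 0.014) and 0.56 without 2 arrays. Leaving out the arrays farthest from the median also narrows the range, so the lower r cannot show whether the relation rests on those. In WT of the total line r was 0.62 and did not pass (adjusted exact permutation p = 0.14). Col6a1 and Col6a2 had r = 0.93 and 0.98 in the WT groups of the total and the ChREBPβ line (adjusted exact permutation p = 0.0040 and 0.0015). In total ChREBP KO r was 0.80 and rho was 0.61, and r was -0.09 without 2 arrays. Of Col3a1 and Col5a2, which are neighbouring genes, r was 0.67 to 0.93 and 1 of 3 groups passed. Of Col5a1 and Col5a2, r was 0.62 to 0.90 and 2 of 3 groups passed.

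**Figure D5:**
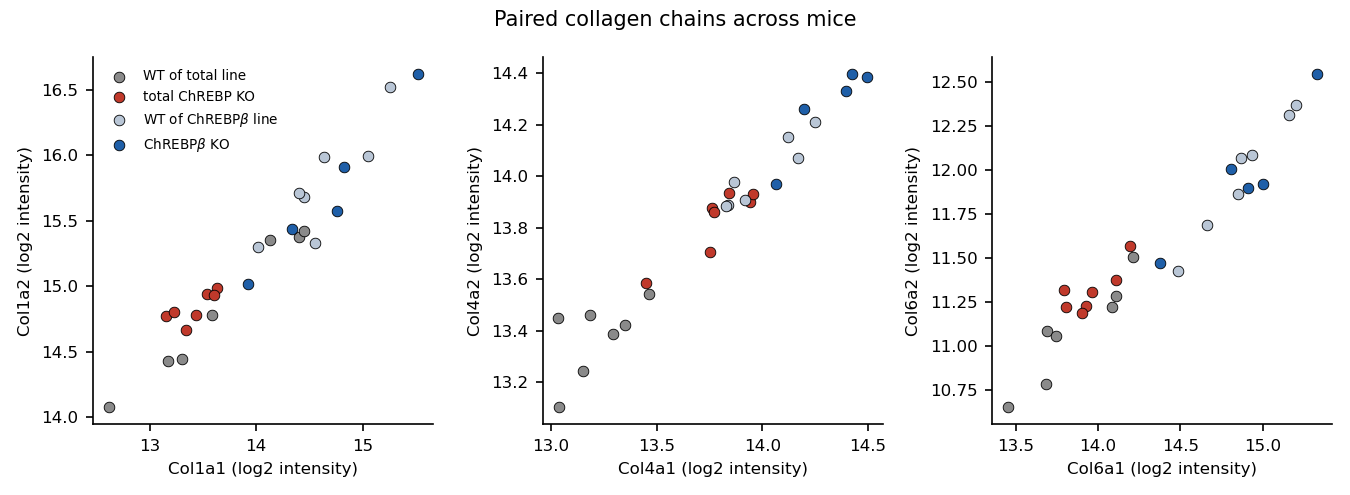
Log2 intensity of Col1a2, Col4a2 and Col6a2 (y axes) against that of Col1a1, Col4a1 and Col6a1 (x axes) on the same array, coloured by group. Within WT of the total line r was 0.99 for the type I chains, 0.62 for the type IV chains and 0.93 for the type VI chains.

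Genes that act on collagens were described from fixed lists. In total ChREBP KO 25.7% of all genes were higher and 20.2% lower, and the counts below are to be read against these shares. Of 20 genes with values for folding and modification of collagen chains, 11 were higher and 1 was lower in total ChREBP KO (median 0.19). Sec24d, a coat protein of the vesicles that carry procollagen, rose by 0.98 (SE 0.11, adjusted p = 1.1e-07). Plod3 and Plod1, lysyl hydroxylases, rose by 0.64 (SE 0.05) and 0.44 (SE 0.07). Colgalt1, which adds galactose to hydroxylysine, fell by 0.41 (SE 0.09, adjusted p = 0.00084), and Serpinh1, the collagen chaperone HSP47, differed by -0.15 (SE 0.10). Of 11 genes for trimming and cross-linking, 5 were higher and 0 lower. Adamts2, which cleaves the N-terminal propeptide, rose by 1.26 (SE 0.15, adjusted p = 4.3e-07), and the lysyl oxidase Lox rose by 0.76 (SE 0.17).

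Of 15 genes for breakdown and its inhibitors 1 was called, Mrc2, an uptake receptor for collagen, which rose by 0.42 (SE 0.12). Of 8 collagen receptors, 3 were higher and 1 was lower. Ddr1, a receptor tyrosine kinase for collagen, rose by 1.17 (SE 0.12, adjusted p = 2.7e-08), and Lair1, an inhibitory receptor of immune cells, fell by 1.03 (SE 0.33). Of 23 other matrix genes, 9 were higher and 1 was lower. Nid2 and Nid1, the nidogens that join laminin to type IV collagen, rose by 2.06 (SE 0.16, adjusted p = 2.5e-10) and 1.02 (SE 0.10), and Fmod, a fibril-binding proteoglycan, fell by 0.88 (SE 0.19). Of 13 TGF-beta and fibrogenic signals, 5 were higher and 4 were lower. Tgfbr2, a receptor for TGF-beta, had the largest fall (-1.45, SE 0.11, adjusted p = 2.9e-10). In ChREBPβ KO 0 genes of these 6 lists were called. Between the WT groups the lists for folding, trimming and breakdown had 17 of 20, 10 of 11 and 9 of 15 genes higher in the ChREBPβ line and 0 lower, against 26.1% and 19.7% of all genes.

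The markers of cells that make collagen were described in the same way. Of 12 fibroblast and progenitor genes, 3 were higher and 3 lower in total ChREBP KO, close to the shares of all genes (25.7% and 20.2%), which stand behind the other counts as well. Of 7 endothelial genes 3 were higher and 0 lower, and of 8 smooth muscle and pericyte genes 1 was higher and 1 lower. Of 6 Schwann cell genes 2 were higher and 1 lower, and of 4 cartilage and tendon genes 1 was higher. Of 7 macrophage genes 2 were lower, of 7 lymph node stroma genes 5 were lower, and of 12 skeletal muscle genes 4 were higher. Epithelial (6) and mesothelial (3) genes had 0 calls. Between the WT groups, 26.1% of all genes were higher in the ChREBPβ line and 19.7% were lower. Of 12 fibroblast and progenitor genes, 7 were higher and 2 lower there. Other lists rose too, with 0 lower: adipocyte 8 of 12, endothelial 4 of 7, macrophage 4 of 7 and Schwann cell 4 of 6. Smooth muscle and pericyte genes had 3 of 8 higher, and cartilage and tendon genes 2 of 4. Lymph node stroma had 1 of 7 higher and 4 lower, and all 15 lymphocyte genes were lower. The part of the cells that make collagen in the collagen values was not tested.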

How the data were processed

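RNA from 26 mice was measured on 26 Agilent whole-genome mouse arrays with Cy3 alone. Per the labels, the authors took spot intensity from Agilent Feature Extraction 10.10.1.1, and the deposited scanner files keep it on a linear scale. For the deposited log2 values the authors used median pixel intensity, removed spots of low quality, normalized by quantiles and took medians of replicate probes. These values (40168 probes, 97 missing) were the main ones here. Median spot intensity was 59 to 107.5 per array, background 15 to 23, and 70.2% to 76.46% of spots were well above background. The number of arrays limits the precision. Probe positions refer to mouse build mm9, and no exon annotation of that build was used.

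Group means were fitted over the 26 arrays by limma 3.58.1 (lmFit, eBayes) under R 4.3.3, with 22 residual degrees of freedom, after the script was tested on simulated data. Exact permutation tests of correlations enumerated all pairings. Alternatives changed the values, filter, probe choice, scaling, blocks (wash batch, slide, replicate number), covariates and arrays. Levels by array are given for 11 main collagens and, in each class, for the 2 largest called rises and falls of each comparison, and of the pathway lists the largest called rise and fall are named, except 1 that is not reported here. Plod1, Plod3, Lox, Nid1 and Serpinh1 were named after their values were seen. The collagens and lists were chosen with earlier results of these data known. Each array is a separate mouse, so p-values measure the spread between mice.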

Additional observations from a re-analysis of the deposited data

Results flagged for a closer look

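On the probes chosen, the effects of both KOs differed for 5 collagens by the interaction term in limma (ChREBPβ effect minus total effect). These were Col24a1 (-0.70), Col28a1 (-0.56), Col4a4 (-0.72), Col6a3 (-0.93) and Col6a4 (1.90). Col24a1 and Col6a4 were near background in some groups, and with 75th percentile scaling Col24a1, Col28a1 and Col4a4 were not called.

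Arrays far from the others of their group were looked for in 72 groups of values (18 genes in 4 groups), and 5 were found. Chance gives about 1 in 20. Col6a5 was 7.69 in replicate 4 of ChREBPβ KO, against 5.07 to 5.49 on the other arrays. Col4a1 was 13.45 in replicate 8 of total ChREBP KO, against 13.75 to 13.96. Col15a1 was 8.34 in replicate 8 of WT of the ChREBPβ line, against 9.42 to 10.14. In replicate 3 of the same group Col28a1 was 5.38, against 5.76 to 6.01, and Col6a4 was 5.13, against 4.51 to 4.73.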

How the results depend on the processing

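In ChREBPβ KO, 0 collagens were called under every alternative run. For total ChREBP KO the 15 calls became 4 with the slide as a fixed block. They became 4 with the lymphocyte and skeletal muscle scores as covariates, and 5 with the lymphocyte score alone (chosen after seeing the data). Calls over all 40168 probes fell as well in these settings, from 18265 to 8646, 5608 and 6166. Leaving out 1 array gave 11 to 16. Between the WT groups the 29 calls became 3 with both scores and 4 with the lymphocyte score alone. Over all probes the 18215 calls became 1309 and 1661. Leaving out 1 array gave 25 to 29 collagens. For the difference between the KO effects the 5 calls became 3 with only probes above background on all arrays and 8 with array weights. They became 0 with the slide as a fixed block, 0 with both scores and 1 with the lymphocyte score alone. Over all probes the 9049 calls became 8308 of 35457, 11604, 627, 2287 and 2447 in these settings. Leaving out 1 array gave 4 to 7 collagens. The cause was not tested, except that the filter on dim probes removes Col24a1 and Col6a4 from the test. The covariates overlap with the groups, and the slide block leaves few arrays per slide. Direction was reversed for Col6a5 between the WT groups (0.078 with both scores and 0.199 with the lymphocyte score alone) and for Col8a2 (-0.108 and -0.094). The r of Col1a1 and Col1a2 in total ChREBP KO passed with 75th percentile scaling (0.90), and that of Col5a1 and Col5a2 there did not (0.73).

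Same-numbered arrays did not deviate together (r from -0.46 to 0.51), so the numbers were not taken to pair mice. With a replicate block 14 collagens were called in total ChREBP KO and 0 in ChREBPβ KO. For the difference 6 were called, and between the WT groups 27. Over all probes these counts were 16449, 6, 8283 and 17124. Probes dim in some groups (Col6a4, Col24a1) limit folds there. The fit of only the groups compared was not run for the difference between the KO effects.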

Other observations

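Col4a6, a type IV chain above background on 26 of 26 arrays, was measured from the scanner files without a filter on dim probes. It was 0.33 higher in total ChREBP KO than in its WT (SE 0.16, adjusted p = 0.11 in limma) and 0.70 higher in WT of the ChREBPβ line than in WT of the total line (SE 0.16, adjusted p = 0.00083). In ChREBPβ KO it differed by 0.02 (SE 0.17).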
